A study of Mus musculus with 12 samples.

Results

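The genes described here are 42 genes of autophagy and the lysosome, from the LC3 gene Map1lc3a to the cathepsins and the lysosomal calcium channel gene Mcoln1. They were taken by symbol from the 54532 genes listed for each library, and all 42 were found. Of these, 40 had a mean of at least 1 FPKM (read counts scaled to gene length and library size) over the 12 libraries and were tested, among 11550 tested genes in all. The median of the mean levels was 15.9 FPKM over the 40 members and 8.17 FPKM over all tested genes. The receptor gene Optn (0.478 to 1.02 FPKM over the libraries) and Wipi1, which encodes a reader of the lipid PI3P (0.113 to 0.341 FPKM), lay below that minimum and were not tested.

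RNA was sequenced from mouse primary CD8+ T cells that had been activated and then given siRNA by the Accell method, which needs no transfection reagent. The siRNA was either non-targeting (siNTC, labelled WT) or directed against Creb1 (siCreb1, labelled Creb1 KD), the gene of the cAMP-response element-binding protein CREB. Each was followed by 24 h with the vehicle DMSO or with 20 μM trans-vaccenic acid (TVA), a fatty acid of ruminant milk and meat. The 4 groups, siNTC, siNTC plus TVA, siCreb1 and siCreb1 plus TVA, hold 3 libraries each, and all groups shared the activation and the siRNA culture. The knockdown was transient, in uncloned primary cells. No source ties a library to an animal or a culture, so the p-values measure the spread between these libraries, which may be technical.

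In autophagy, a cup of membrane grows around cytoplasm, closes and fuses with the lysosome, where acid hydrolases break down the content. The ULK kinase complex starts the process, the class III PI3-kinase complex marks the membrane with the lipid PI3P, and a conjugation system attaches the small proteins of the LC3 and GABARAP families to it, where they hold receptors and cargo. The transcription factors TFEB and TFE3 raise many lysosomal and autophagy genes by binding the CLEAR element, whose core is an E-box, while CREB binds the cAMP-response element (CRE). Activated CD8+ T cells use autophagy and lysosomal proteins when they grow, form memory cells and release cytotoxic granules.

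Sequences around the start sites are shown first because CREB and TFEB act through short DNA words. Windows of 300 bases (250 before to 50 after the start, from RefSeq on GRCm38.p6) were found for 35 of the 42 members. Map1lc3a, Rb1cc1, Becn1, Pik3c3, Atg12, Atg16l1 and Ctsb were not among them. The CLEAR core TCACGTG, read on both strands, occurred in the windows of 7 members (20% of the 35), against 4.29% of all 27025 genes with a window. They were Atg14, Atg3, Atg7, Lamp1, Mcoln1, Ctsa and Ctsd. The shorter E-box CACGTG, which lies inside TCACGTG, occurred in 9 of the 35 members (25.7%) and in 8.09% of all genes. The full CRE TGACGTCA was present only in Atg5 among the 35 (2.86%), against 2.03% of all genes, and its shorter core TGACG in 10 of 35 (28.6%), against 23.0%. Those with TGACG were Map1lc3b, Gabarapl2, Nbr1, Ulk2, Atg13, Atg2b, Atg5, Atg10, Ctsd and Neu1. A match describes letters and is not a measured binding site.

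Printed below are the windows of 3 lysosomal members with the CLEAR core that changed in opposite directions after the knockdown (Lamp1 and Ctsd lower, Mcoln1 higher with TVA), and of Map1lc3b, an LC3 gene with 1 TGACG. Capitals mark TCACGTG or its reverse complement CACGTGA in the first 3 and TGACG in the last. The Ctsd window also holds TGACG on the opposite strand (read as cgtca), 43 bases before the start, which is left in lower case. Overlapping matches counted as 1 site, so Lamp1 holds 4 distinct sites, Ctsd 2 and Mcoln1 2. The windows are chr8:13158911-13159210 on the plus strand for Lamp1, chr7:142387778-142388077 on the minus strand for Ctsd, chr8:3500269-3500568 on the plus strand for Mcoln1 and chr8:121590188-121590487 on the plus strand for Map1lc3b.
Lamp1: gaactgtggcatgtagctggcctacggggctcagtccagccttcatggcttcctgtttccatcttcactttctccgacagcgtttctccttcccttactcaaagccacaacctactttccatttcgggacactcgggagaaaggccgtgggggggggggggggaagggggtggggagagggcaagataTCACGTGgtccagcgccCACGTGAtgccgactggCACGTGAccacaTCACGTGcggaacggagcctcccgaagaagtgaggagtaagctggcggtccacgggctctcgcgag
Ctsd: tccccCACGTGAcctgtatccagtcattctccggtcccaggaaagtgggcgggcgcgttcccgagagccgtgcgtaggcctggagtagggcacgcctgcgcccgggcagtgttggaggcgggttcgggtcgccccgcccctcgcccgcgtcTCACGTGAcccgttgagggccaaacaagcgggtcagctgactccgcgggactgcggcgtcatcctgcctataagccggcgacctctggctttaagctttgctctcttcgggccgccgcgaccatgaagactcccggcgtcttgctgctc
Mcoln1: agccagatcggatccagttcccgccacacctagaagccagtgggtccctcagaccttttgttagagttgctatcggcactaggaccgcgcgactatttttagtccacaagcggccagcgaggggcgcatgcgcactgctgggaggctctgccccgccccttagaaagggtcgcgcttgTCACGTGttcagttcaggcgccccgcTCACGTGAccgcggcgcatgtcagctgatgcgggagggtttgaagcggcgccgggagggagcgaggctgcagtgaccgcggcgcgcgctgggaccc
Map1lc3b: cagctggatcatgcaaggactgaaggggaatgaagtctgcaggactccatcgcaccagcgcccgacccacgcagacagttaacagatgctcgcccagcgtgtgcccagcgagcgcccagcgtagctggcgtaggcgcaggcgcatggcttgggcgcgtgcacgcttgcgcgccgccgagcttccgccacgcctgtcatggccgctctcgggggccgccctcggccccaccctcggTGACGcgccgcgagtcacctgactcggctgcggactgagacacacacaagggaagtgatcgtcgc

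Creb1 itself was measured at 10.3 to 12.4 FPKM in the 6 siNTC libraries and at 1.17 to 1.81 FPKM in the 6 siCreb1 libraries, which left 13.2% (exact two-sided permutation test, p = 0.00216, 6 against 6). The libraries held 16660234 to 24602484 reads recovered from the FPKM steps, and no pair was identical. All 8 CD8 T cell markers were present. Their summed level was 2773 to 2835 FPKM in the siNTC libraries and 2651 to 2668 FPKM in the siCreb1 libraries, lower without overlap, and the part of this in the results below was not tested. The markers did not all move the same way. Cd8b1 was lower in the siCreb1 libraries without overlap (821.7 to 859.7 against 924.1 to 941 FPKM). So were Cd3d (224.1 to 236.9 against 245.5 to 264.7 FPKM) and Cd2 (113.8 to 124.2 against 125.5 to 134.2 FPKM). Cd8a was higher in the siCreb1 libraries without overlap (441.3 to 450.4 against 415.6 to 425.4 FPKM), and Cd3e, Cd3g, Trac and Lck overlapped. The 11 myeloid markers summed to 9.67 to 14.5 FPKM, mostly Lyz2 (mean 6.19 FPKM) and Cd68 (mean 3.02 FPKM), with Adgre1, Csf1r and C1qa each at means under 0.12 FPKM. That sum was highest in siCreb1 plus TVA (13.7 to 14.5 FPKM) and lowest in siNTC plus TVA (9.67 to 9.78 FPKM). The 5 B cell markers summed to 9.48 to 14.3 FPKM. In RNA from whole cultures, fewer cells that express a gene and less RNA of it per cell cannot be told apart.

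The first question was how these genes differed after the Creb1 knockdown, asked once in vehicle-treated and once in TVA-treated cells. Below, a fall, rise, fold change or call 'without TVA' or 'with TVA' refers to these knockdown comparisons. An effect of TVA itself is named as such. Loss of Creb1 and other effects of the siRNA cannot be told apart in this design. Without TVA, 13 of the 40 tested members (32.5%) fell in siCreb1 cells and 0 rose, at an adjusted p under 0.05 from limma over all tested genes. Over all tested genes 13.7% passed in either direction and 7.21% were lower. Of the 40 members 34 had a fold change below 0, with a median of -0.10 on the log2 scale of FPKM + 1 against -0.0011 over all tested genes. With TVA, 7 members fell and 1, Mcoln1, rose (20% of 40), against 10.1% of all tested genes in either direction, 5.51% lower and 4.64% higher. The median with TVA was -0.058, against -0.012 over all tested genes, and 30 of 40 members lay below 0.

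The knockdown comparisons without and with TVA share no library, but they come from the same fit and share its estimate of the spread, so they are not fully independent. Map1lc3a, Map1lc3b, Gabarap, Lamp1, Ctsd and Ctsl fell in both, which are 6 of the 13 members called without TVA and 6 of the 8 called with it. The sign of the fold change was the same in both for 30 of the 40 members. For 8 members (20%) every one of the 6 siCreb1 libraries lay below every one of the 6 siNTC libraries, against 4.26% of all tested genes. They were Map1lc3a, Map1lc3b, Gabarap, Gabarapl1, Ulk2, Lamp1, Ctsd and Ctsl, and 0 members lay above in all libraries. Members called in any comparison numbered 15, and 25 passed in none.

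**Figure D1:**
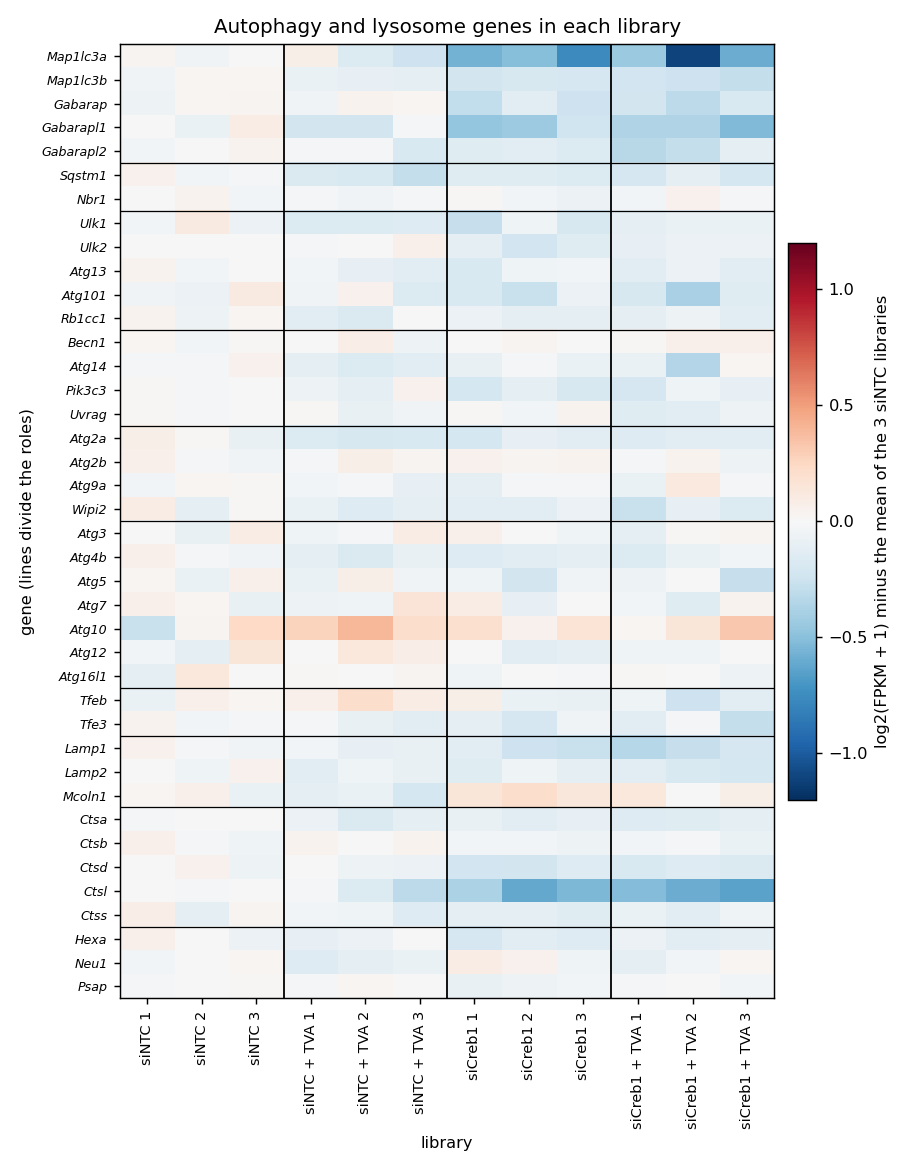
Log2(FPKM + 1) of each of the 40 tested members (rows, divided by role) in each of the 12 libraries (columns), minus the mean of the 3 siNTC libraries. Blue is lower and red higher. The 6 siCreb1 columns on the right are blue for the LC3 and GABARAP family, Lamp1, Ctsd and Ctsl, and red for Mcoln1 in all but 1 of them, siCreb1 plus TVA replicate 2, which is near 0.

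How the values are scaled bears on these counts. The deposited FPKM of a library do not sum to a fixed total, and a 57-base gene, Gm23935, held 3.58% to 9.11% of the sum. When FPKM were rescaled to TPM, a unit with a fixed sum per library, the higher share of all calls went from 47.5% to 75.4% without TVA, from 45.7% to 83.8% with TVA and from 60.9% to 72.3% for TVA in siNTC cells. The members' counts became 6 lower and 1 higher (Mcoln1) of 40 without TVA, against 10.4% of all tested genes in either direction. Map1lc3a, Map1lc3b, Gabarap, Gabarapl1, Ctsd and Ctsl were the 6 lower. With TVA, Gabarap and Ctsl stayed lower and Mcoln1 higher. These were 3 of 40 members, against 6.41% of all tested genes. The members' median fold change on this scale was -0.064 without TVA, against 0.043 over all tested genes. With TVA it was -0.015, against 0.037. No call of a member changed sign under any alternative tried.

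The LC3 and GABARAP family, the ubiquitin-like proteins that are joined to the autophagosome membrane, was lower after the knockdown in all 5 members. Of these, 4 passed without TVA (80%) and 3 with TVA (60%), against 7.21% and 5.51% of all tested genes lower. Map1lc3a (ENSMUSG00000027602, chr2:155276297-155278073, plus strand) encodes LC3A. Its level was 8.31, 7.84 and 8.09 FPKM in siNTC, 8.52, 7.12 and 6.62 in siNTC plus TVA, 5.14, 5.38 and 4.33 in siCreb1, and 5.68, 3.21 and 5.02 in siCreb1 plus TVA. All 6 siCreb1 libraries lay below all 6 siNTC libraries, and the spread was widest in siCreb1 plus TVA. The knockdown left 61.3% of the mean without TVA (log2 fold change -0.61, s.e. 0.15, adjusted p = 0.022) and 62.5% with it (-0.60, s.e. 0.15, adjusted p = 0.031). These were the largest fold changes among the members in either comparison. They rest on 95 to 198 reads a library. The call without TVA was lost when siNTC replicate 1, 2 or 3 or siCreb1 replicate 1 or 3 was left out (adjusted p from 0.052 to 0.078), and that with TVA without siNTC plus TVA replicate 1 or 2 or siCreb1 plus TVA replicate 2 or 3 (0.054 to 0.098). Both were also lost with all genes above 0 tested (0.069 and 0.092), and that with TVA on the TPM scale (0.062) and in a fit of only the libraries compared (0.099).

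Map1lc3b (ENSMUSG00000031812, chr8:121590361-121598760, plus strand) encodes LC3B, the form most often followed as an autophagosome marker. It was read at 17.4, 18.3 and 18.3 FPKM in siNTC, 17.0, 16.7 and 16.7 in siNTC plus TVA, 15.3, 15.7 and 15.5 in siCreb1, and 15.2, 14.98 and 14.6 in siCreb1 plus TVA. Libraries of 1 group lay close together, and the siNTC and siCreb1 libraries did not overlap. The fall was smaller than for Map1lc3a in size and firmer in the test, at -0.20 without TVA (s.e. 0.028, adjusted p = 0.0014) and -0.16 with TVA (s.e. 0.028, adjusted p = 0.0072). Both calls held whichever 1 library was left out, and that with TVA did not pass on the TPM scale (adjusted p = 0.135).

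Gabarap (ENSMUSG00000018567, chr11:69991143-69994951, plus strand), the most abundant family member by FPKM, acts late in autophagosome closure and fusion. The libraries gave 70.8, 75.2 and 75.5 FPKM in siNTC, 71.7, 76.1 and 74.8 in siNTC plus TVA, 59.9, 67.0 and 61.8 in siCreb1, and 63.4, 59.1 and 64.7 in siCreb1 plus TVA. Both pairs of groups were apart, and TVA left the means of 73.8 and 74.2 FPKM in siNTC cells within their spread. Its fold changes were -0.23 without TVA (s.e. 0.047, adjusted p = 0.011) and -0.25 with TVA (s.e. 0.047, adjusted p = 0.011), and both passed under every alternative tried.

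Gabarapl1 (ENSMUSG00000030161, chr6:129533160-129542346, plus strand) encodes a close relative of GABARAP. Its values were 11.5, 10.8 and 12.3 FPKM in siNTC, 9.78, 9.73 and 11.4 in siNTC plus TVA, 8.10, 8.29 and 9.64 in siCreb1, and 8.76, 8.74 and 7.67 in siCreb1 plus TVA. The highest siCreb1 library (9.64) lay just below the lowest siNTC plus TVA library (9.73). It fell without TVA (-0.38, s.e. 0.080, adjusted p = 0.012), a call that held under every alternative. With TVA the difference was -0.27 and did not pass (s.e. 0.080, adjusted p = 0.061), but it passed without siCreb1 replicate 3.

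Gabarapl2 (ENSMUSG00000031950, chr8:111940703-111953612, plus strand), also known as GATE-16, was 30.3, 30.9 and 31.9 FPKM in siNTC, 30.6, 30.7 and 27.2 in siNTC plus TVA, 27.9, 28.1 and 27.5 in siCreb1, and 24.4, 25.3 and 28.5 in siCreb1 plus TVA. The groups were apart without TVA and overlapped with it. Neither difference passed, at -0.15 without TVA (adjusted p = 0.113) and -0.17 with TVA (adjusted p = 0.084). The first passed in a fit of only the libraries compared, and the second without siNTC plus TVA replicate 3 or siCreb1 plus TVA replicate 3. By FPKM, which is per length, the order in siNTC cells was Gabarap, Gabarapl2, Map1lc3b, Gabarapl1 and Map1lc3a, with no overlap between neighbours, and the same order held in each of the other groups.

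**Figure D2:**
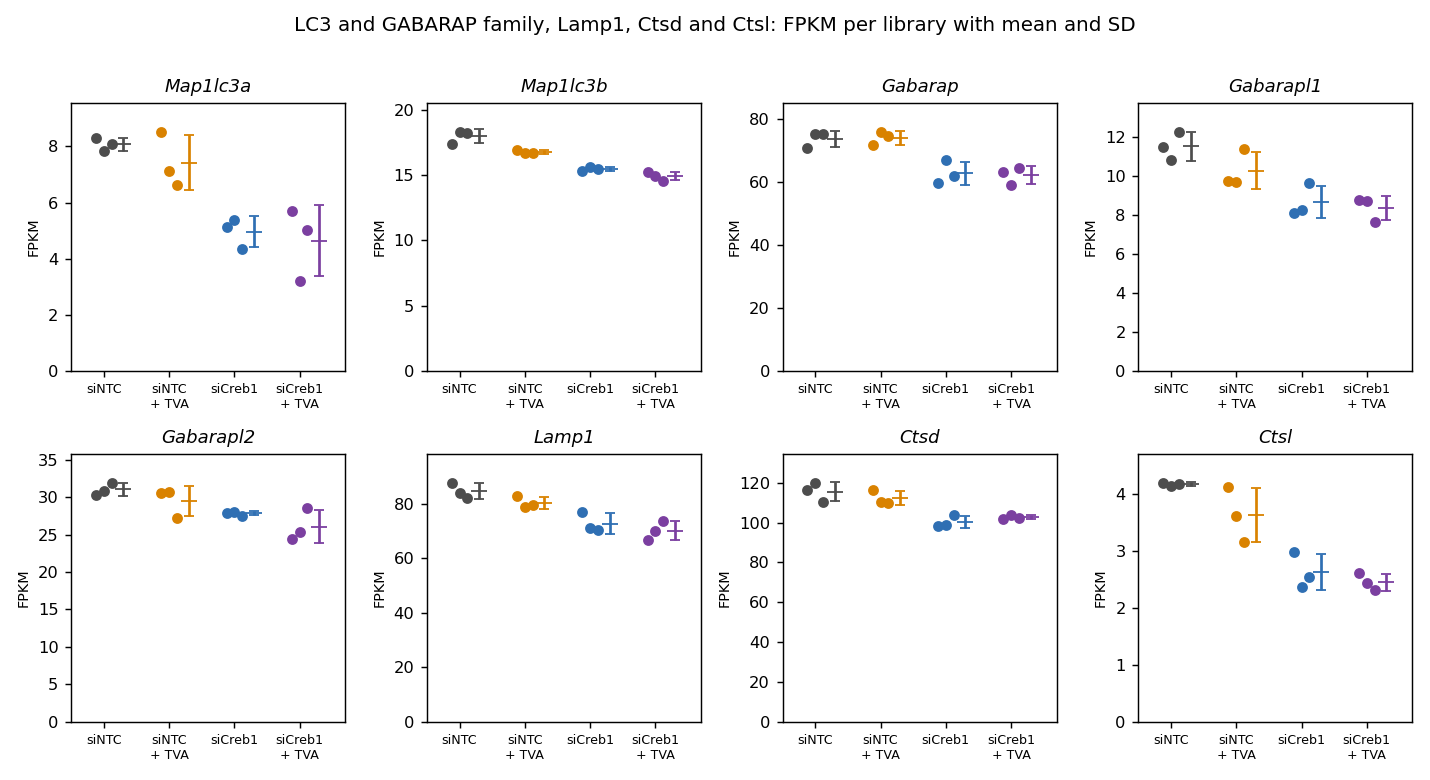
FPKM of the 5 LC3 and GABARAP genes, Lamp1, Ctsd and Ctsl in the 4 groups. Points are the 3 libraries of a group, and the mark beside them is the mean with its SD. In each panel but Gabarapl2 all 6 siCreb1 points lie below all 6 siNTC points.

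Among the receptors, which bind ubiquitin-tagged cargo and LC3, Sqstm1 (ENSMUSG00000015837, chr11:50199366-50210827, minus strand) encodes p62, itself degraded by autophagy. It had 58.6, 55.2 and 56.0 FPKM in siNTC, 49.98, 49.9 and 46.3 in siNTC plus TVA, 51.1, 51.0 and 50.4 in siCreb1, and 49.2, 52.1 and 48.9 in siCreb1 plus TVA. The 3 siNTC libraries without TVA were above the 9 others, which ran from 46.3 to 52.1 FPKM. Sqstm1 fell with knockdown without TVA (-0.15, s.e. 0.036, adjusted p = 0.020) and differed by 0.038 with TVA (adjusted p = 0.550). That call was lost without siNTC replicate 1 or siCreb1 replicate 1, 2 or 3 (adjusted p from 0.052 to 0.065) and on both TPM scales, from all genes (0.121) and from genes of at least 200 bases (0.073). The other tested receptor, Nbr1, stayed between 15.3 and 16.8 FPKM in all libraries and passed no test.

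In the ULK kinase complex, 1 of 5 members passed for the knockdown without TVA (20%), against 13.7% of all tested genes. Ulk2 (ENSMUSG00000004798, chr11:61775649-61855073, minus strand), a kinase that works beside ULK1, was 10.3, 10.4 and 10.4 FPKM in siNTC, 10.1, 10.4 and 10.9 in siNTC plus TVA, 9.46, 8.65 and 9.29 in siCreb1, and 9.57, 9.81 and 9.79 in siCreb1 plus TVA. All siCreb1 libraries were below all siNTC libraries. It fell without TVA (-0.17, s.e. 0.037, adjusted p = 0.016), a call lost without siCreb1 replicate 2 (0.053) on both TPM scales (0.106 and 0.061) and in a fit of only the libraries compared (0.069), and with TVA the difference of -0.097 did not pass (adjusted p = 0.126). Ulk1, Atg13, Atg101 and Rb1cc1 had fold changes of -0.17, -0.089, -0.17 and -0.098 without TVA, none past the threshold (Ulk1 passed without siCreb1 replicate 2).

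Of the class III PI3-kinase complex, only Pik3c3 (ENSMUSG00000033628, chr18:30272747-30348126, plus strand), the catalytic subunit VPS34, passed. It measured 18.2, 17.7 and 18.02 FPKM in siNTC, 17.2, 16.6 and 18.6 in siNTC plus TVA, 15.4, 16.5 and 15.6 in siCreb1, and 15.6, 17.3 and 16.7 in siCreb1 plus TVA. The siCreb1 libraries were below the siNTC libraries without TVA and overlapped them with TVA. Its fold change without TVA was -0.17 (s.e. 0.048, adjusted p = 0.038). The call was lost in 7 of 12 leave-outs, those of siNTC replicates 1, 2 and 3, siNTC plus TVA replicate 1, siCreb1 replicates 1 and 3 and siCreb1 plus TVA replicate 3 (adjusted p from 0.051 to 0.118). It was also lost with all genes above 0 tested (0.091) and on both TPM scales (0.190 and 0.102). The scaffold genes Becn1, Atg14 and Uvrag passed in no comparison, and Becn1 stayed between 15.1 and 16.7 FPKM in all libraries.

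Atg2a (ENSMUSG00000024773, chr19:6241668-6262335, plus strand) encodes a tube that carries lipid to the growing membrane. The libraries gave 18.2, 17.6 and 16.3 FPKM in siNTC, 15.3, 15.1 and 15.1 in siNTC plus TVA, 14.9, 16.1 and 15.7 in siCreb1, and 15.5, 15.7 and 15.6 in siCreb1 plus TVA. As for Sqstm1, the 3 siNTC libraries without TVA were above the 9 others. Atg2a fell with the knockdown without TVA (-0.15, s.e. 0.041, adjusted p = 0.038), which held in only 2 of the 12 leave-outs, those of siNTC replicate 3 and siCreb1 replicate 2 (in the other 10, adjusted p from 0.051 to 0.131). It was also lost with all genes above 0 tested, on both TPM scales and in a fit of only the libraries compared (0.084 to 0.178). Atg2b, Atg9a and Wipi2, which serve the same step, passed in no comparison.

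The conjugation machinery, which joins LC3 and GABARAP proteins to lipid, showed no call in either knockdown comparison by limma. Atg3, Atg4b, Atg5, Atg7, Atg10, Atg12 and Atg16l1 had fold changes from -0.13 (Atg4b) to 0.14 (Atg10) without TVA and from -0.12 (Atg10) to 0.032 (Atg4b) with TVA. At an unadjusted p under 0.05 there was 1 member without TVA, Atg4b, and 0 with it, and limma-voom on the recovered reads also called 0. Atg10 sat lowest in level, at 1.28 to 2.62 FPKM.

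Of the MiT/TFE transcription factors, Tfeb passed in the comparison with TVA. Tfeb (ENSMUSG00000023990, chr17:47737030-47792419, plus strand) was 3.99, 4.50 and 4.37 FPKM in siNTC, 4.51, 5.10 and 4.61 in siNTC plus TVA, 4.56, 3.99 and 3.96 in siCreb1, and 4.09, 3.46 and 3.81 in siCreb1 plus TVA. The groups overlapped without TVA and were apart with it, where siNTC plus TVA had the highest mean of the 4 groups. Tfeb was lower after the knockdown with TVA (-0.26, s.e. 0.070, adjusted p = 0.041) and differed by -0.033 without it (adjusted p = 0.815), but the interaction, which tests that difference, did not pass (-0.23, adjusted p = 0.325). The call with TVA held only without siNTC replicate 1 or 2, siCreb1 replicate 1 or siCreb1 plus TVA replicate 1, and in the other 8 leave-outs the adjusted p was 0.051 to 0.135. It was also lost with all genes above 0 tested, on both TPM scales and in a fit of only the libraries compared (0.070 to 0.103). Tfe3 had fold changes of -0.12 without and -0.064 with TVA and passed in neither.

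On the lysosomal membrane, the abundant glycoprotein gene Lamp1 (ENSMUSG00000031447, chr8:13159161-13175338, plus strand) was lower after the knockdown. The calcium channel gene Mcoln1 (ENSMUSG00000004567, chr8:3500457-3515232, plus strand) was higher after the knockdown in TVA-treated cells. The windows printed above show the CLEAR core in both. Lamp1 was 87.6, 84.0 and 82.2 FPKM in siNTC, 82.8, 78.7 and 79.3 in siNTC plus TVA, 77.0, 70.9 and 70.1 in siCreb1, and 66.6, 69.8 and 73.5 in siCreb1 plus TVA. All siCreb1 libraries lay below all siNTC libraries. The change was -0.22 without TVA (s.e. 0.045, adjusted p = 0.011), which held in all leave-outs but not on the TPM scale (0.058). With TVA it was -0.20 (s.e. 0.045, adjusted p = 0.022), and this call was lost without siNTC plus TVA replicate 1 or siCreb1 plus TVA replicate 1 or 2 (adjusted p from 0.066 to 0.078), with all genes above 0 tested (0.059) and on both TPM scales (0.121 and 0.061).

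Mcoln1, the gene of the channel TRPML1 whose calcium release activates TFEB, had 7.34, 7.52 and 6.72 FPKM in siNTC, 6.60, 6.72 and 6.06 in siNTC plus TVA, 8.03, 8.50 and 8.01 in siCreb1, and 7.93, 7.18 and 7.60 in siCreb1 plus TVA. The siCreb1 libraries were the higher ones in both comparisons without overlap. The rise was 0.20 with TVA (s.e. 0.053, adjusted p = 0.039) and 0.16 without TVA, which did not pass (s.e. 0.053, adjusted p = 0.065) by limma and passed on the TPM scale and by limma-voom. The call with TVA was lost in 7 of 12 leave-outs, those of siNTC plus TVA replicates 1, 2 and 3, siCreb1 replicates 1 and 3 and siCreb1 plus TVA replicates 1 and 3 (adjusted p from 0.053 to 0.127), with all genes above 0 tested (0.090) and in a fit of only the libraries compared (0.079). Lamp2 had -0.10 without and -0.083 with TVA and passed in neither.

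**Figure D3:**
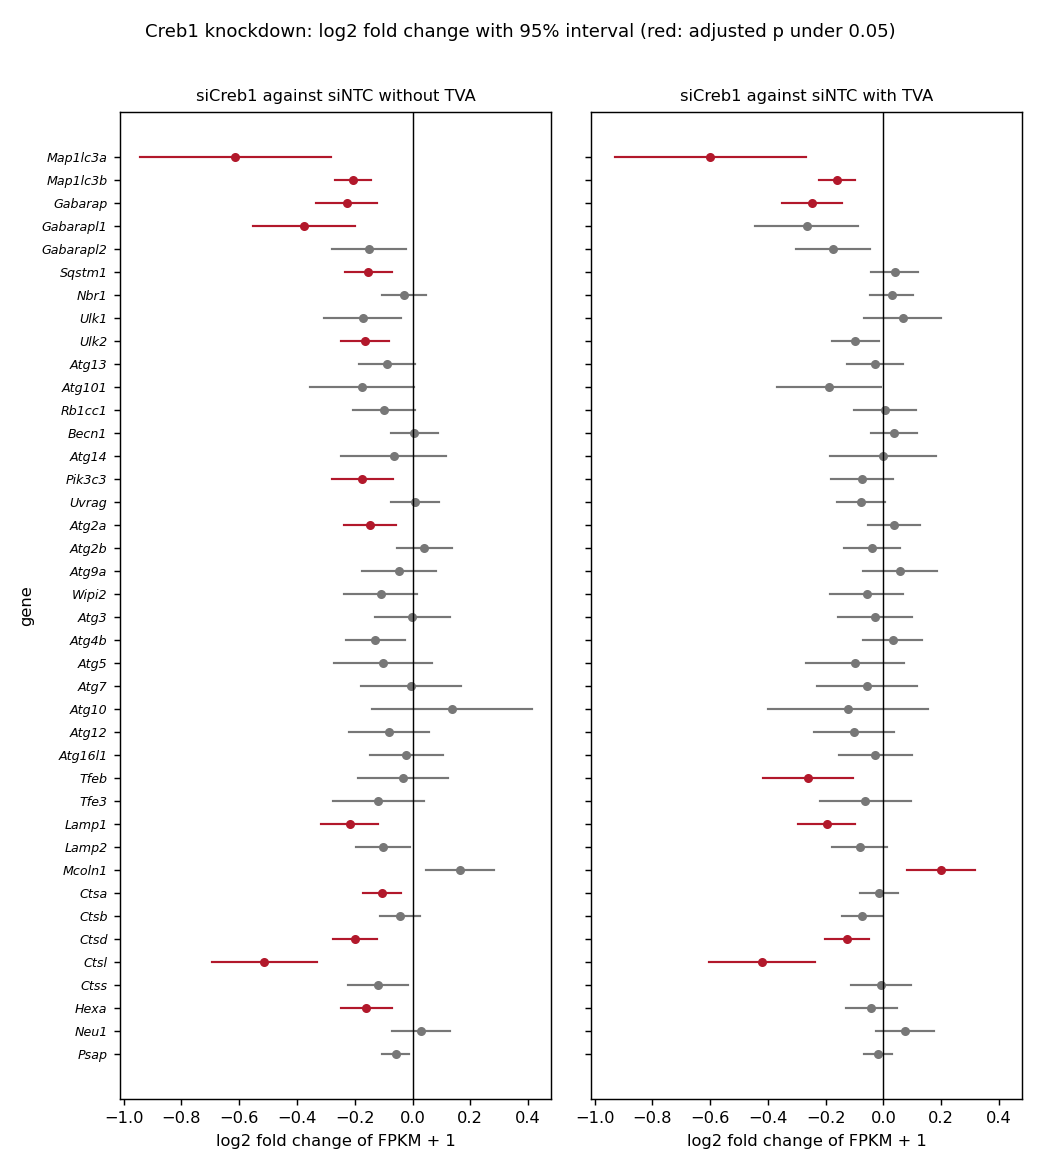
Log2 fold change of FPKM + 1 after the Creb1 knockdown for the 40 tested members, without TVA (left) and with TVA (right), with 95% intervals from limma. Red marks an adjusted p under 0.05, 13 members on the left and 8 on the right, of which Mcoln1 alone lies above 0.

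Among the lysosomal proteases, 3 of 5 fell after the knockdown without TVA (60%) and 2 with it (40%). Over all tested genes 7.21% and 5.51% were lower. Ctsl (ENSMUSG00000021477, chr13:64359337-64370890, minus strand) encodes the cysteine protease cathepsin L. It was low in level, with 4.20, 4.14 and 4.18 FPKM in siNTC, 4.12, 3.62 and 3.17 in siNTC plus TVA, 2.98, 2.37 and 2.55 in siCreb1, and 2.61, 2.43 and 2.32 in siCreb1 plus TVA. The groups did not overlap, and siNTC plus TVA spread the most. The knockdown left 63.1% of the mean without TVA (-0.51, s.e. 0.082, adjusted p = 0.0031) and 67.4% with TVA (-0.42, s.e. 0.082, adjusted p = 0.012), and both calls passed under every alternative. Macrophages also express Ctsl. The sum of the 11 myeloid markers was 10.8 to 11.2 FPKM in siNTC, 10.3 to 12.2 in siCreb1, 9.67 to 9.78 in siNTC plus TVA and 13.7 to 14.5 in siCreb1 plus TVA, and the part of such cells in the Ctsl values was not tested.

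Ctsd (ENSMUSG00000007891, chr7:142375911-142388038, minus strand), the aspartic protease cathepsin D, was measured at 116, 120.0 and 110.5 FPKM in siNTC, 116, 111 and 110.0 in siNTC plus TVA, 98.3, 99.0 and 104 in siCreb1, and 102, 104 and 102 in siCreb1 plus TVA. Every siCreb1 library was below every siNTC library. Its fold change was -0.20 without TVA (s.e. 0.034, adjusted p = 0.0042), a call that passed under every alternative. With TVA it was -0.13 (s.e. 0.034, adjusted p = 0.042). In 9 of the 12 leave-outs that call was lost (adjusted p from 0.0502 to 0.127), and it held without siNTC replicate 2 or 3 or siCreb1 replicate 3. It was also lost with all genes above 0 tested (0.102) and on both TPM scales (0.280 and 0.166).

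Ctsa (ENSMUSG00000017760, chr2:164832873-164841032, plus strand), the carboxypeptidase cathepsin A that also protects neuraminidase 1, had 30.0, 30.5 and 30.6 FPKM in siNTC, 28.9, 26.8 and 28.0 in siNTC plus TVA, 28.6, 27.6 and 28.3 in siCreb1, and 27.1, 27.4 and 28.1 in siCreb1 plus TVA. The 3 siNTC libraries without TVA were again above the 9 others. The fall without TVA was -0.11 (s.e. 0.030, adjusted p = 0.039), and it held in 3 of 12 leave-outs, those of siNTC plus TVA replicates 1 and 2 and siCreb1 plus TVA replicate 3 (in the other 9, adjusted p from 0.053 to 0.126). It was also lost with all genes above 0 tested, on both TPM scales, by limma-voom and in a fit of only the libraries compared (0.069 to 0.444). The cysteine protease genes Ctsb (24.9 to 27.5 FPKM) and Ctss (100.3 to 118 FPKM), the latter best known from antigen-presenting cells, passed in no comparison, although Ctss passed for the knockdown without TVA when siNTC replicate 2 was left out.

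Of the glycosidases and saposins, Hexa (ENSMUSG00000025232, chr9:59539540-59565109, plus strand), the alpha subunit of hexosaminidase A, measured 19.5, 18.6 and 17.7 FPKM in siNTC, 17.2, 17.7 and 18.5 in siNTC plus TVA, 16.1, 17.0 and 16.6 in siCreb1, and 17.7, 16.9 and 17.2 in siCreb1 plus TVA. The groups were apart without TVA and overlapped with it. It fell without TVA (-0.16, s.e. 0.040, adjusted p = 0.025), a call lost without siNTC replicate 1 or 2 or siCreb1 replicate 1 or 3 (adjusted p from 0.062 to 0.087). It did not pass with all genes above 0 tested, on both TPM scales, by limma-voom or in a fit of only the libraries compared (0.056 to 0.154). Neu1, the sialidase, and Psap, the saposin precursor and the most abundant member at a mean of 215 FPKM, passed in no comparison.

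Several of these genes overlap another gene on the opposite strand, and whether the counting used strand is not given in the sources used here. The partners of Map1lc3b (Zcchc14), Gabarapl1 (1700101I11Rik), Ctsl (Gm47123) and Hexa (Tmem202) had mean levels under 0.03 FPKM. Those of Sqstm1 (Mrnip, 0.727 FPKM), Lamp1 (Grtp1, 0.981 FPKM) and Ctsa (Neurl2, 1.33 FPKM, and Pltp, 1.41 FPKM) were low beside the member. Some partners were not low. Ankzf1 (7.34 FPKM) was above Atg9a (3.59 FPKM), Gskip (6.77 FPKM) was level with Atg2b (6.45 FPKM), and Fdft1 had 12.3 FPKM beside Ctsb at 26.0 FPKM. Thap4 (1.77 FPKM) beside Atg4b (5.75 FPKM) and 4732440D04Rik (1.196 FPKM) beside Rb1cc1 (6.54 FPKM) came next. If strand was not used, reads of these pairs cannot be told apart, and the missed tests of these members share that limit.

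The second question was what TVA did while Creb1 was present. In siNTC cells, 3 of the 40 members passed and all 3 were lower (7.5%), against 7.38% of all tested genes in either direction and 2.88% lower. The median fold change was -0.065, against -0.0056 over all tested genes, and 28 of 40 members were below 0. Sqstm1 went from a mean of 56.6 ± 1.77 (SD, n = 3) to 48.7 ± 2.07 FPKM (-0.21, s.e. 0.036, adjusted p = 0.0050), a call that passed under every alternative. Atg2a went from 17.4 ± 0.983 to 15.2 ± 0.141 FPKM (-0.18, s.e. 0.041, adjusted p = 0.025), and Ctsa from 30.4 ± 0.325 to 27.9 ± 1.04 FPKM (-0.12, s.e. 0.030, adjusted p = 0.035). The 3 TVA libraries lay below the 3 vehicle libraries for each, and these siNTC vehicle libraries are also the reference of the knockdown comparison without TVA.

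The count of 3 became 1, Sqstm1 alone, without siNTC replicate 2 or siNTC plus TVA replicate 2 or 3. Atg2a was lost without siNTC replicate 1 or 2 or any siNTC plus TVA library (adjusted p from 0.055 to 0.079), with all genes above 0 tested (0.056) and in a fit of only the libraries compared (0.110). Ctsa was lost in 8 of 12 leave-outs, those of the 3 siNTC replicates, siNTC plus TVA replicates 2 and 3, siCreb1 replicate 3 and siCreb1 plus TVA replicates 1 and 2 (0.0502 to 0.115), with all genes above 0 tested, on both TPM scales, by limma-voom and in a fit of only the libraries compared (0.063 to 0.184). No LC3 or GABARAP gene was called for TVA in siNTC cells. The nearest was Map1lc3b, whose mean was 18.01 FPKM without and 16.8 FPKM with TVA (-0.095, adjusted p = 0.073). Map1lc3b passed, beside Sqstm1, when siNTC replicate 1 was left out.

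In siCreb1 cells TVA changed 0 of the 40 members by limma, against 0.537% of all tested genes. At an unadjusted p under 0.05 there were 2, Ulk2 (0.083) and Uvrag (-0.13), and limma-voom on the recovered reads called 0. The median fold change was -0.022, with 24 of 40 below 0. For Sqstm1, Atg2a and Ctsa the TVA differences in siCreb1 cells were -0.022, 0.0037 and -0.030.

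The interaction asked whether the TVA difference in siCreb1 cells differed from that in siNTC cells. It passed for 0 of the 40 members by limma, against 2.24% of all tested genes, with 5 members at an unadjusted p under 0.05. These were Sqstm1 (0.19, s.e. 0.051, adjusted p = 0.096), Ulk1 (0.24, adjusted p = 0.216), Atg2a (0.18, adjusted p = 0.158), Atg4b (0.16, adjusted p = 0.285) and Tfeb (-0.23, adjusted p = 0.325). By limma-voom 1 member passed, Sqstm1 (adjusted p = 0.022). The 95% interval of the Sqstm1 interaction from limma ran from 0.077 to 0.30, and that of Map1lc3a from -0.45 to 0.48, so a difference as large as its knockdown effect of -0.61 was outside the latter.

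**Figure D4:**
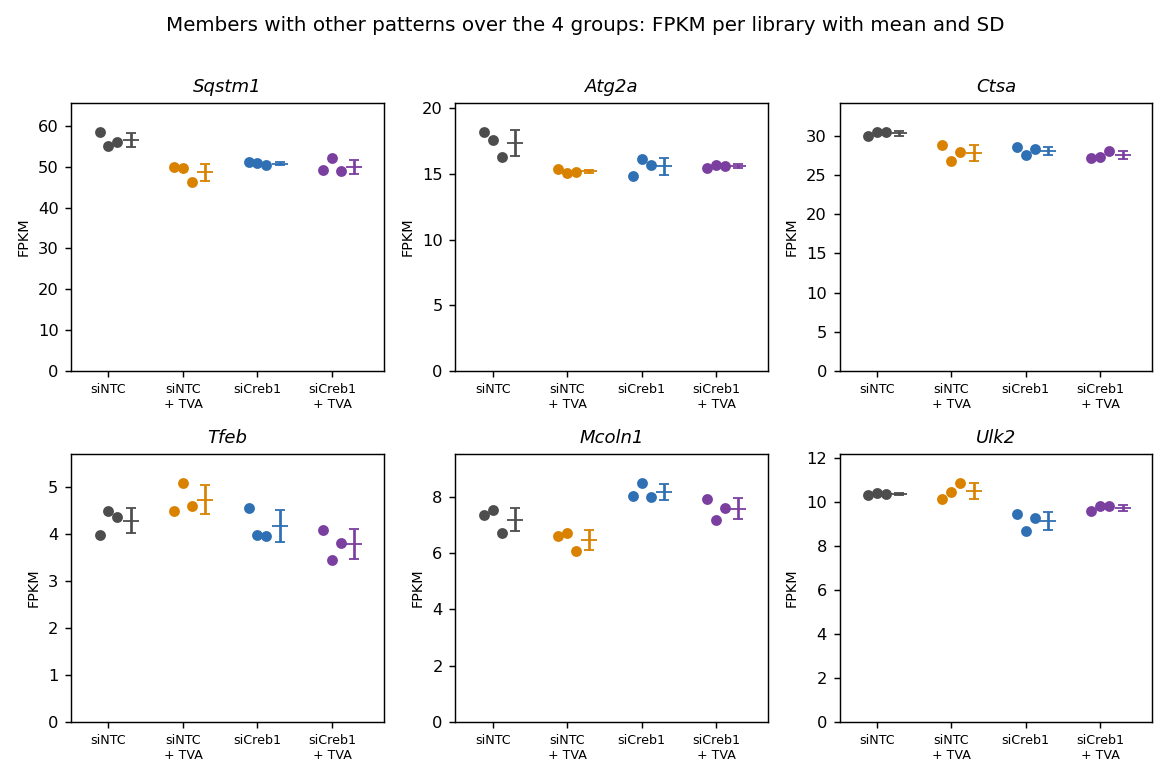
FPKM of Sqstm1, Atg2a, Ctsa, Tfeb, Mcoln1 and Ulk2 in the 4 groups, with the 3 libraries as points and the mean with its SD beside them. For Sqstm1, Atg2a and Ctsa the 3 siNTC points without TVA are above all others. For Tfeb the siNTC plus TVA mean is highest, and for Mcoln1 the siCreb1 points are above the siNTC points at the same treatment.

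Further genes of the same pathways were taken as 5 lists of 145 genes, 125 of them tested. After the knockdown without TVA, 22 of these fell and 1 rose (18.4%), against 13.7% of all tested genes in either direction and 7.21% lower. With TVA 15 fell and 6 rose (16.8%), against 10.1% in either direction, 5.51% lower and 4.64% higher. In TVA-treated siNTC cells 7 fell and 0 rose (5.6%), against 7.38% of all tested genes in either direction and 2.88% lower. In TVA-treated siCreb1 cells 0 passed by limma, with 16 at an unadjusted p under 0.05 and 0 by limma-voom. Of the 36 calls named below, 13 held whichever 1 library was left out, those of Pink1 (in 3 comparisons), Bnip3l, Acp5, Atp6ap2, Rraga (in 2), Man2b1 (in 2), Flcn, and Akt1s1 and Sesn1 without TVA. Of these 13, the calls of Pink1 and Atp6ap2 with TVA and of Rraga in both comparisons were lost on the TPM scale. So were those of Man2b1 for TVA in siNTC cells and of Akt1s1 and Sesn1 without TVA. The other 23 were lost in 1 to 11 of the 12 leave-outs, with an adjusted p of at most 0.151. Of these 23, only Plekhm1, Stx17, Atg4d, Atp6v1g2, Ctso, Cln3, Slc38a9 and Akt1s1 for TVA in siNTC cells passed on the TPM scale.

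The 29 tested autophagy genes outside the 42 included 7 that fell after the knockdown without TVA (24.1%), and 4 that fell and 2 that rose with TVA (20.7%). Over all tested genes 13.7% and 10.1% passed in either direction. Pink1, the kinase that marks damaged mitochondria, fell from 51.1 ± 1.58 to 40.5 ± 0.598 FPKM without TVA (-0.33, s.e. 0.034, adjusted p = 2.7e-04). It also fell with TVA (-0.19, adjusted p = 0.0080). The effect of TVA itself on Pink1 in siNTC cells was a fall as well (-0.23, adjusted p = 0.0022). Bnip3l, the mitophagy receptor NIX, fell without TVA from 54.0 ± 1.88 to 44.9 ± 1.07 FPKM (-0.26, s.e. 0.033, adjusted p = 9.6e-04). Snap29, a fusion protein of autophagosome and lysosome, fell without TVA (-0.18, adjusted p = 0.013), whereas Stx17, its partner SNARE, rose with TVA (0.28, adjusted p = 0.049), as did the LC3 protease gene Atg4d (0.18, adjusted p = 0.046). In siNTC cells TVA also lowered the PI3P reader Wdr45 (-0.27, adjusted p = 0.027) and the lysosome-fusion adaptor Plekhm1 (-0.20, adjusted p = 0.016).

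For the vacuolar ATPase, the proton pump that acidifies the lysosome, 5 of 17 tested genes fell and 1 rose after the knockdown without TVA (35.3%), and 5 fell with TVA (29.4%). The shares of all tested genes in either direction were 13.7% and 10.1%. The subunit genes Atp6v1d (-0.19, adjusted p = 0.030) and Atp6v0d1 (-0.17, adjusted p = 0.045) fell without TVA, and Atp6ap2 (-0.21, adjusted p = 0.0099), Atp6v1d (-0.20, adjusted p = 0.030) and Atp6v1f (-0.18, adjusted p = 0.020) with TVA. Each of these named falls was lost on the TPM scale, so the shares of this list hold for FPKM as deposited. The call of Atp6v0d1 was also lost in 11 of 12 leave-outs and by limma-voom. Atp6v1g2, an isoform best known from neurons, rose without TVA from 0.993 ± 0.0599 to 1.63 ± 0.297 FPKM (0.39, adjusted p = 0.023).

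The other hydrolases had 4 of 32 lower without TVA, and 2 lower and 2 higher with TVA. That is 12.5% in each, near the 13.7% and 10.1% of all tested genes, so the genes named here are single calls and not a result for the hydrolases. Acp5, a lysosomal acid phosphatase, went from 133 ± 4.97 to 117 ± 1.46 FPKM without TVA (-0.18, s.e. 0.027, adjusted p = 0.0023), and the glycogen-degrading Gaa (-0.23, adjusted p = 0.031) and the sphingomyelinase gene Smpd1 (-0.20, adjusted p = 0.035) fell as well. With TVA the knockdown lowered Ctsc, the activator of granzymes (-0.13, adjusted p = 0.031), and raised the mannosidase gene Man2b1 (0.13, adjusted p = 0.0035) and Ctso (0.14, adjusted p = 0.046). In siNTC cells TVA lowered Man2b1 from 34.1 ± 0.350 to 31.8 ± 0.0407 FPKM (-0.098, adjusted p = 0.012).

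In the list of other membrane and trafficking genes, 2 of 22 passed without TVA (9.09%) and 3 with TVA (13.6%), against 13.7% and 10.1% of all tested genes. Those that fell without TVA were Laptm5 (-0.11, adjusted p = 0.016) and the cholesterol carrier Npc2 (-0.098, adjusted p = 0.022). With TVA, Npc2 (-0.11, adjusted p = 0.016) and Laptm4a (-0.16, adjusted p = 0.024) fell and Cln3 rose (0.21, adjusted p = 0.023). Of the regulators of TFEB and mTORC1, the kinase that holds TFEB in the cytoplasm, 4 of 25 fell without TVA (16%), and 2 fell and 1 rose with TVA (12%), both near the shares of all tested genes. Rraga, the GTPase RagA that brings mTORC1 to the lysosome, fell without (-0.20, s.e. 0.038, adjusted p = 0.0071) and with TVA (-0.24, s.e. 0.038, adjusted p = 0.0047). Akt1s1, the mTORC1 inhibitor PRAS40 (-0.22, adjusted p = 0.011), and Sesn1 (-0.14, adjusted p = 0.013) fell without TVA. With TVA, Lamtor1 fell (-0.17, adjusted p = 0.020) and the arginine sensor Slc38a9 rose (0.23, adjusted p = 0.024). In siNTC cells TVA lowered Akt1s1 (-0.22, adjusted p = 0.014), Flcn (-0.20, adjusted p = 0.011) and Sesn1 (-0.13, adjusted p = 0.029).

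**Figure D5:**
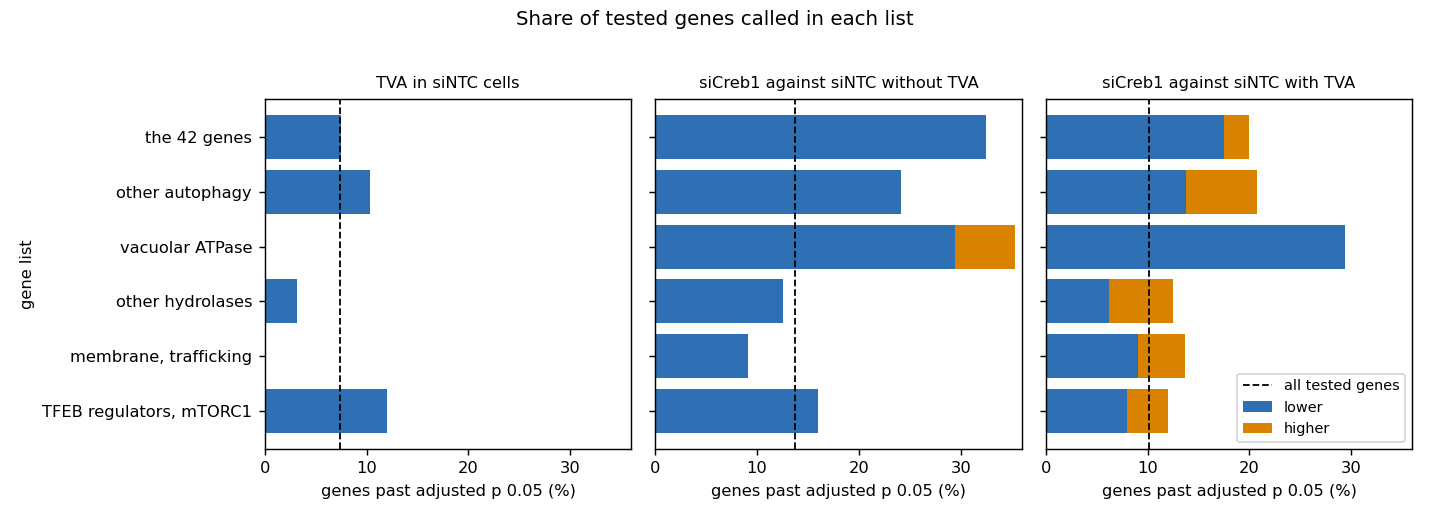
Percent of tested genes past an adjusted p of 0.05 in the 42 genes and the 5 further lists, split into lower (blue) and higher (orange), for 3 comparisons. All shares are from FPKM as deposited, not from TPM. The dashed line is the share over all 11550 tested genes, at 7.38%, 13.7% and 10.1% from left to right. Without TVA the 42 genes stand at 32.5% and the vacuolar ATPase at 35.3%, and the membrane and trafficking list at 9.09% lies below the line.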

How the data were processed

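The authors deposited 1 table of FPKM values per library for 12 libraries of mouse CD8+ T cells, with Ensembl identifiers, positions and gene lengths on GRCm38. Libraries were made with a SMARTER mRNA kit per the labels. The aligner, the counting program and the strand setting are not given in the sources used here. Positions equalled those of GENCODE vM21 for 98.3% of the listed genes and for 41 of the 42 members.

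Groups followed the sample titles, 3 libraries each. FPKM were tested as log2(FPKM + 1), so fold changes of low genes are understated, for genes with a mean of at least 1 FPKM. One limma 3.58.1 fit (R 4.3.3) with a mean-variance trend covered all 12 libraries and gave 5 comparisons, with p-values adjusted by Benjamini-Hochberg over the 11550 tested genes and a threshold of 0.05. With 3 libraries against 3, an exact permutation test cannot go below p = 0.1. Whole reads were recovered from the FPKM steps for at least 99.995% of values, giving 16660234 to 24602484 reads a library. As a mean over genes, the variance between replicates was 3.54 to 5.29 times that of counting alone. The ratio was not taken for single members. For members with few reads, such as Map1lc3a (95 to 198 a library), depth may limit the precision as well. The fit was tested on simulated data.

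The members and the further lists were chosen with earlier results of these data known. Described by library are the 5 LC3 and GABARAP genes and each other member past the threshold in any comparison, and up to 3 genes with the largest fold change per further list and comparison are named. Ulk1, Atg4b and Uvrag were also named, after their values were seen. The fit was repeated with TPM, with a pseudocount of 0.1, without the level filter, with limma-voom on recovered whole reads, within each pair of groups, with a block for the replicate number, and without each library in turn. TPM from genes of at least 200 bases was added after the data were seen.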

Additional observations from a re-analysis of the deposited data

Results flagged for a closer look

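For 2 further genes, neither among the 42, the TVA difference in siCreb1 cells differed from that in siNTC cells by limma's interaction test (adjusted over all tested genes). Man2b1, a lysosomal mannosidase, was 33.8, 34.5 and 34.1 FPKM in siNTC, 31.8, 31.8 and 31.9 in siNTC plus TVA, 33.5, 33.9 and 34.1 in siCreb1, and 35.2, 35.2 and 34.7 in siCreb1 plus TVA. TVA went with lower values in siNTC cells and higher ones in siCreb1 cells, without overlap in either, for an interaction of 0.148 (s.e. 0.028, adjusted p = 0.021). Akt1s1, which encodes the mTORC1 inhibitor PRAS40, was 13.1, 13.3 and 11.9 FPKM in siNTC, 10.6, 10.8 and 11.04 in siNTC plus TVA, 11.2, 10.5 and 10.8 in siCreb1, and 12.3, 11.7 and 11.5 in siCreb1 plus TVA. Its interaction was 0.337 (s.e. 0.064, adjusted p = 0.022). The Man2b1 call was lost in 7 of 12 leave-outs, those of each siNTC plus TVA library, siCreb1 replicates 1 and 2 and siCreb1 plus TVA replicates 1 and 2 (adjusted p from 0.0502 to 0.064). That of Akt1s1 was lost in 8, those of siNTC replicates 1 and 2, siNTC plus TVA replicates 1 and 2, siCreb1 replicates 2 and 3 and siCreb1 plus TVA replicates 1 and 2 (0.051 to 0.061). Both were also lost on the TPM scale, that of Man2b1 with a replicate block and that of Akt1s1 with all genes above 0 tested.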

How the results depend on the processing

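The 24 calls of members kept their sign under every alternative. With all genes above 0 tested, the members called were 1 for TVA in siNTC cells, 8 for the knockdown without TVA and 3 with TVA, where more genes share the adjustment. The shares of all genes then tested were 1.90%, 3.34% and 2.30%, beside these counts out of 42 members. On the TPM scale the knockdown counts were 7 and 3 of 40, against 10.4% and 6.41% of all tested genes. With TPM from genes of at least 200 bases they were 8 and 5 of 40, against 14.9% and 11.3%. A fit of only the libraries compared gave 1 for TVA in siNTC cells and 5 for the knockdown with TVA, with fewer libraries behind the spread. Over all tested genes it called 3.19% and 7.81%. By limma-voom the interaction gave 1, against 3.86% of all tested genes. Leaving out 1 library gave 1 to 3 members for TVA in siNTC cells, 7 to 12 for the knockdown without TVA (7 without siNTC replicate 1 or siCreb1 replicate 1 or 3) and 3 to 8 with TVA (3 without siNTC plus TVA replicate 1, 4 without siNTC plus TVA replicate 2 or siCreb1 plus TVA replicate 2, 5 without siCreb1 plus TVA replicate 1 or 3). The cause was not tested for the TPM, limma-voom and leave-out changes.

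Over all tested genes, the calls for TVA in siNTC cells were 852, and 563 with all genes above 0, 556 on the TPM scale and 368 with only the libraries compared. The knockdown without TVA gave 1586 calls, and 992 with all genes and 817 with only the libraries compared, and that with TVA 1172, and 683 with all genes and 740 on the TPM scale. TVA in siCreb1 cells gave 62 calls, 157 by limma-voom and 37 on the TPM scale, and the interaction 259, 446 and 152. Leaving out 1 library gave 558 to 767, 1020 to 1532, 599 to 1245, 30 to 67 and 168 to 237 calls in these comparisons, in that order.

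The labels number the replicates, but libraries with the same number did not deviate together (18 pairs, r from -0.059 to 0.06), so the number was not taken as a pairing. With a replicate block, the members called were 2 for TVA in siNTC cells, 0 for TVA in siCreb1 cells, 9 for the knockdown without TVA, 6 with TVA and 0 for the interaction. The calls of members lost with the block were those of Pik3c3, Atg2a, Hexa and Ctsa without TVA (adjusted p from 0.052 to 0.064), of Tfeb and Ctsd with TVA (both 0.074) and of Ctsa for TVA in siNTC cells (0.053).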
